A study of Homo sapiens with 6 samples.

Results

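The kinesin motor family was examined in PLC/PRF/5 cells, a line long grown from a human liver cancer, after small interfering RNA (siRNA) against the splicing factor SLU7. Members were the transcript clusters of the array whose single gene symbol is KIF followed by a number and any further letters or digits, and 37 clusters met that rule. Taking the brightest cluster of each gene left 35 genes, of 15971 genes with a single symbol on the array. The siSLU7 group held 3 arrays of cells transfected with siRNAs against SLU7, and the control group held 3 arrays of the same line transfected with an irrelevant siRNA (siGL2 in the series design, siGL numbered 1 to 3 on the samples). Both groups received the same lipid transfection reagent, and RNA was taken at 48 h. Expression was read from total RNA on the Human Exon 1.0 ST array of Affymetrix, which gave 1 log2 expression value per transcript cluster, a group of probe sets covering a gene. Values are compared only within a gene, because probes of different genes differ in brightness.

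Kinesins are motor proteins that use ATP to walk along microtubules or to take them apart. Transport kinesins carry vesicles, mitochondria and endosomes outward from the cell centre, and several are best known from neurons. Mitotic kinesins build the spindle, move chromosomes and complete cytokinesis, and many of their genes are transcribed mainly in late G2 phase and mitosis. The 35 genes comprised 14 transport kinesins, 11 mitotic kinesins and 10 others that serve cilia or Hedgehog signalling, or that are atypical or less studied. No cluster on the array carried KIF4A, KIF4B, KIF1C or KIF18B as its single symbol, and these genes were not analysed here.

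SLU7 (cluster 2884684) stood at 5.84, 5.58 and 6.21 log2 units on the siSLU7 arrays and at 7.89, 7.01 and 7.24 on the control arrays. Its siSLU7 mean was 35.2% of the control level, with a limma adjusted p of 0.0783, which misses the threshold of 0.05. On the first principal component of all clusters, siSLU7 replicate 1 and control replicate 2 lay at 49.4 and 61.8 and the other 4 arrays between -37.4 and -17.8, so 1 array of each group stood apart. Differences are therefore also given between those 2 arrays and among the other 4. Of 9 hepatocyte and hepatoma markers, all were measured, and ALB and SERPINA1 lay below the lower quartile of cluster means (4.92 log2 units). The mean of those 9 markers ran from 7.35 to 7.55 on siSLU7 arrays and from 7.84 to 8.09 on control arrays. Blood and endothelial markers (6 measured of 7) averaged 4.89 to 5.05 on siSLU7 arrays and 5.06 to 5.09 on control arrays, with PTPRC and CD3E below the lower quartile. The others lay above it, PECAM1 highest with means of 6.82 with siSLU7 and 7.05 with control siRNA. Fibroblast and stellate markers (6 of 6) averaged 5.00 to 5.59 on siSLU7 arrays and 4.95 to 5.39 on control arrays. Of these, COL1A2 and COL3A1 lay below the lower quartile. The others lay above it, PDGFRB highest with means of 8.24 with siSLU7 and 8.36 with control siRNA. Nothing in the labels says whether the replicates were separate cultures, so every p-value here reflects the spread between arrays alone.

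No kinesin gene passed the test over all 18708 clusters at an adjusted p under 0.05 (limma, Benjamini-Hochberg), a threshold that 0.433% of all clusters passed. At an unadjusted limma p under 0.05 there were 4 kinesins, against 13.1% of all clusters, which is 11.4% of the family. Those 4 were KIF5C, KIF5A and KIF1B, all transport motors and lower on siSLU7 arrays, and KIF9, higher on them. The median siSLU7 minus control difference was -0.06 log2 units over the 35 genes and 0.004 over all clusters. Only KIF5C reached a difference of 2-fold or more, which 6.91% of all clusters did. For 19 of the 35 genes the 95% interval of the difference lay within 2-fold either way, as it did for 44.9% of all clusters. For the other 16 a difference beyond 2-fold was not excluded. Among these, the interval of KIF5C (2.23- to 8.76-fold lower) lay wholly beyond 2-fold. That interval is not adjusted for the number of clusters tested, and KIF5C had the largest difference of the family.

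**Figure D1:**
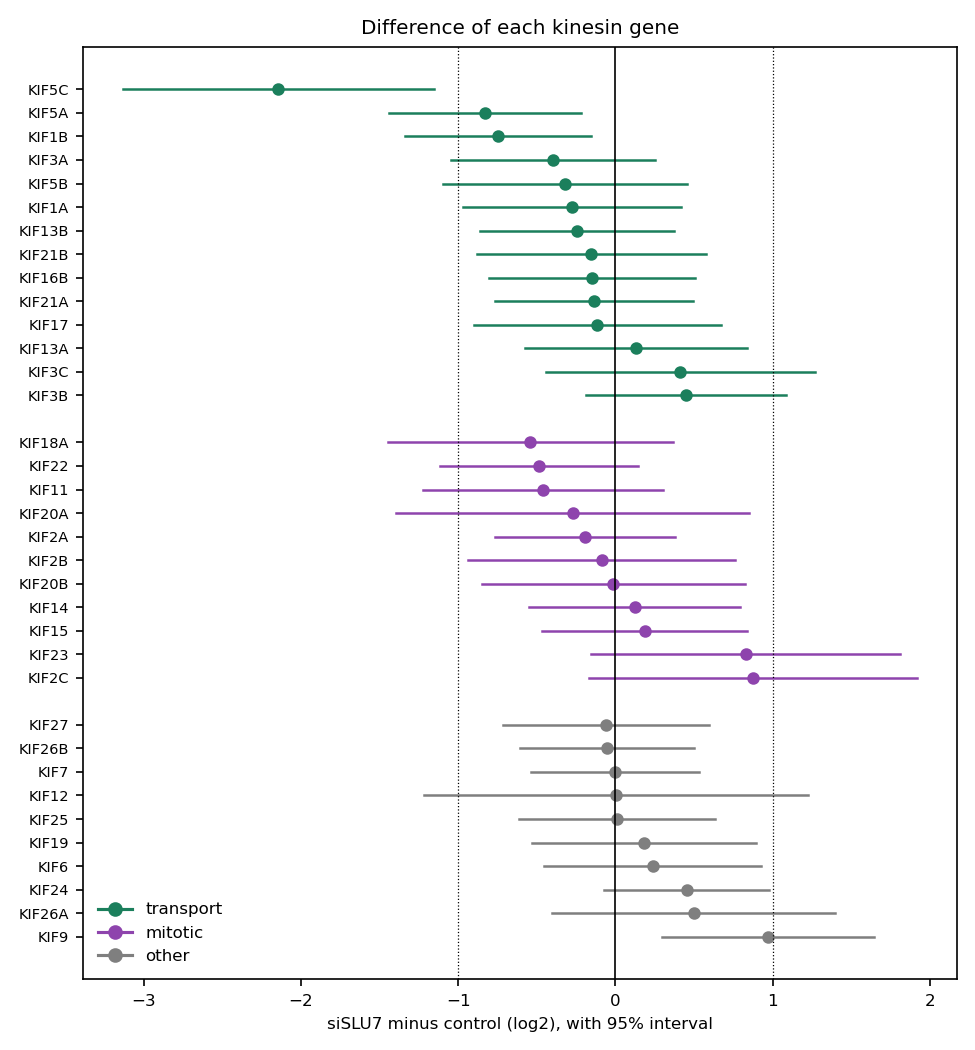
The siSLU7 minus control difference of each of the 35 kinesin genes in log2 units (points) with its 95% limma interval (lines), grouped into transport, mitotic and other kinesins; dotted lines mark 2-fold either way. KIF5C lies farthest to the left at -2.14, and the intervals of KIF5C, KIF5A, KIF1B and KIF9 do not cross 0.

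Conventional kinesin, or kinesin-1, pairs a heavy chain (KIF5A, KIF5B or KIF5C) with light chains that bind cargo. KIF5C (cluster 2509979), a heavy chain enriched in neurons, had 5.21, 4.52 and 5.43 log2 units on the siSLU7 arrays, against 7.96, 6.36 and 7.27 on the control arrays. Its groups did not overlap. The means were 5.05 ± 0.47 with siSLU7 and 7.20 ± 0.80 with control siRNA (SD, n = 3 each), a difference of -2.14 ± 0.43 (SE) log2 units or 4.42-fold lower (95% interval 2.23 to 8.76), with a limma adjusted p of 0.0734. Among all clusters, 9.21% had siSLU7 values wholly below the control values, and 6.54% were lower at an unadjusted p under 0.05. Between the 2 arrays standing apart KIF5C differed by -1.15, and among the other 4 by -2.64. Leaving out 1 array moved the difference between -2.56 (without control replicate 2) and -1.76 (without control replicate 1).

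KIF5A (cluster 3418300), the other neuron-enriched heavy chain, had 5.47, 5.21 and 5.19 log2 units on siSLU7 arrays and 6.07, 6.47 and 5.82 on control arrays, again without overlap. That is a difference of -0.83 ± 0.27 (SE), or 1.78-fold lower, with a limma adjusted p of 0.221. The dimmer KIF5A cluster (3418297) did not show it: its values were 5.59, 5.55 and 3.79 with siSLU7 and 5.05, 4.80 and 5.34 with control siRNA, a difference of -0.08. KIF5B, the heavy chain that nearly every cell uses, had 7.99, 7.76 and 7.35 log2 units on siSLU7 arrays and 8.19, 8.47 and 7.41 on control arrays. The KIF5B groups overlapped, and its interval ran from -1.09 to 0.45. Exact two-sided permutation tests of 4 pairs of motor subunits cannot go below p = 0.1 with 3 arrays against 3, so no pair could pass 0.05 and the p-values do not show that the chains moved alike. KIF5C differed by -1.82 log2 units more than KIF5B (exact p = 0.2, adjusted 0.267) and by -1.31 more than KIF5A (exact p = 0.2, adjusted 0.267). KIF5A differed by -0.51 more than KIF5B (exact p = 0.1, adjusted 0.267).

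Light chains and cargo adaptors were followed as the wider pathway. KLC4, a light chain, had 4.86, 5.12 and 5.53 log2 units with siSLU7 and 6.83, 6.61 and 6.70 with control siRNA, a difference of -1.55 ± 0.27 (SE) or 2.93-fold lower (limma adjusted p = 0.0526). KLC1, the light chain best known from neurons, had 5.57, 6.09 and 5.59 with siSLU7 and 5.02, 5.19 and 5.39 with control siRNA, which is 0.55 ± 0.26 (SE) higher (limma adjusted p = 0.442). The 2 light chains thus lay on opposite sides of 0, each with groups apart. KLC2 (-0.94) and KLC3 (-0.71) were lower without overlap, with limma adjusted p-values of 0.238 and 0.274. TRAK1, which links kinesin-1 to mitochondria, differed by -0.78, and KTN1, an endoplasmic reticulum protein named for binding kinesin, by -0.77. On the same list TRAK2 differed by -0.08 and MAPK8IP3 by 0.54, each with overlapping groups. The list had 11 members below 0 and 4 above. Of 15 measured light chains, accessory subunits and adaptors (16 listed), none passed the test in either direction, 5 were lower at an unadjusted limma p under 0.05 (33.3%, against 6.54% of all clusters) and none higher (6.55% of all clusters). Their median difference was -0.26 log2 units, against 0.004 over all clusters.

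**Figure D2:**
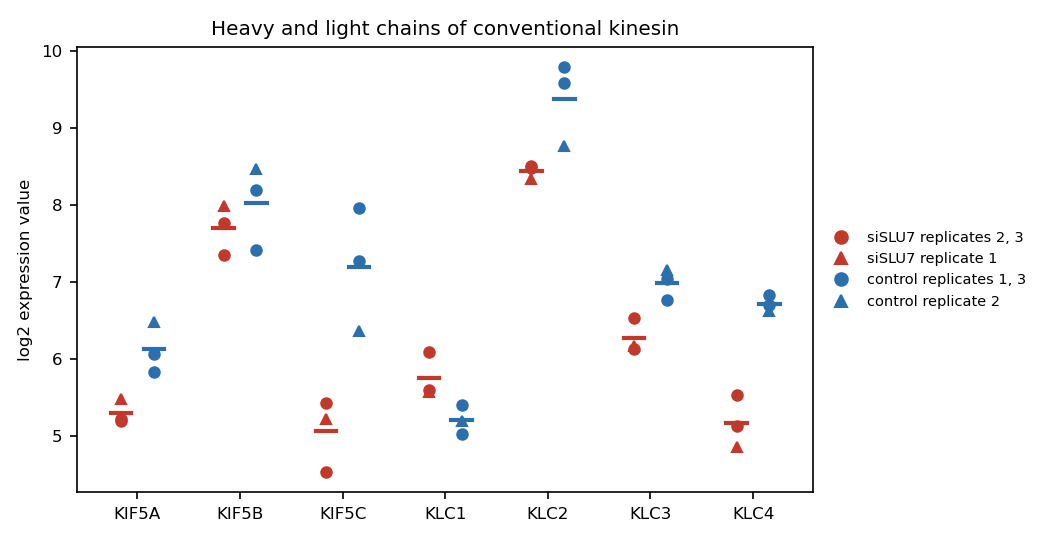
Log2 expression values of the heavy chains KIF5A, KIF5B and KIF5C and the light chains KLC1 to KLC4 of conventional kinesin on each of 6 arrays, siSLU7 left of control within each gene; bars are group means and triangles mark siSLU7 replicate 1 and control replicate 2. The groups lie apart for KIF5A, KIF5C and KLC1 to KLC4 and overlap for KIF5B; KLC1 alone among these is higher with siSLU7 (0.55).

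Because KIF5A and KIF5C are neuron-enriched, neuronal markers were read beside them, and 4 of 5 were measured. Their mean level ran from 4.66 to 5.13 log2 units on siSLU7 arrays and from 5.36 to 6.31 on control arrays. TUBB3 and MAP2 lay below the lower quartile of cluster means. SNAP25, a protein of vesicle fusion, had 7.78, 7.89 and 8.10 log2 units with siSLU7 and 9.54, 8.997 and 9.52 with control siRNA, a difference of -1.43 (limma adjusted p = 0.0613). TUBB3, neuronal beta-tubulin, differed by -2.07 and was dim in both groups, and its sign turned, at 0.60 between the 2 arrays standing apart and -3.41 among the other 4. SYP differed by -0.27 and MAP2 by -0.20, none past the threshold. The part of these genes in the KIF5C difference was not tested.

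KIF1B (cluster 2319786), a kinesin-3 that carries mitochondria and synaptic vesicle precursors, had 7.37, 7.21 and 7.13 log2 units on siSLU7 arrays and 8.19, 7.64 and 8.12 on control arrays. Every siSLU7 value lay below every control value. The difference was -0.75 ± 0.26 (SE), or 1.68-fold lower, with a limma adjusted p of 0.258, and it was -0.27 between the 2 arrays standing apart and -0.99 among the other 4. None of the other kinesin-3 transport motors had groups apart: KIF1A differed by -0.27, KIF13B by -0.24, KIF16B, a motor of early endosomes, by -0.15 and KIF13A, which works on recycling endosomes, by 0.13. KIF13A had 7.90, 7.45 and 7.27 log2 units with siSLU7 and 7.13, 7.90 and 7.20 with control siRNA, so siSLU7 replicate 1 and control replicate 2 held the highest value of their groups. The kinesin-4 motors KIF21A and KIF21B differed by -0.14 and -0.15.

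In kinesin-2, KIF3A and KIF3B form 1 motor with the accessory subunit KIFAP3, which moves cargo within cilia. KIF3B had 8.75, 9.25 and 8.75 log2 units on siSLU7 arrays and 8.24, 8.36 and 8.80 on control arrays, a difference of 0.45 ± 0.28 (SE). KIF3A had 5.72, 5.24 and 5.72 with siSLU7 and 6.05, 6.24 and 5.59 with control siRNA, a difference of -0.40 ± 0.28 (SE). KIFAP3 differed by 0.42. All 3 genes had overlapping groups, and the KIF3A difference lay -0.85 log2 units from that of KIF3B (exact p = 0.3, adjusted 0.3, in the design that cannot go below 0.1). KIF3C, which can replace KIF3B as partner of KIF3A, had 6.10, 4.99 and 5.23 with siSLU7 and 4.70, 5.57 and 4.82 with control siRNA, a difference of 0.41 with an interval from -0.44 to 1.27, which was 0.08 without siSLU7 replicate 1. KIF17, a homodimeric kinesin-2, differed by -0.12.

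Over the 14 transport kinesins the median difference was -0.20 log2 units, and 11 lay below 0. None passed the test in either direction, and 3 (KIF5C, KIF5A and KIF1B) had groups apart, all lower. That is 21.4% of the class. Among all clusters, 18.9% had groups apart in either direction and 9.21% had siSLU7 values wholly below the control values. Between the 2 arrays standing apart, 1 against 1, the median was -0.42, and among the other 4 it was -0.07. It was -0.04 without control replicate 2 and -0.29 without siSLU7 replicate 1. All 14 had a mean above the lower quartile of clusters.

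**Figure D3:**
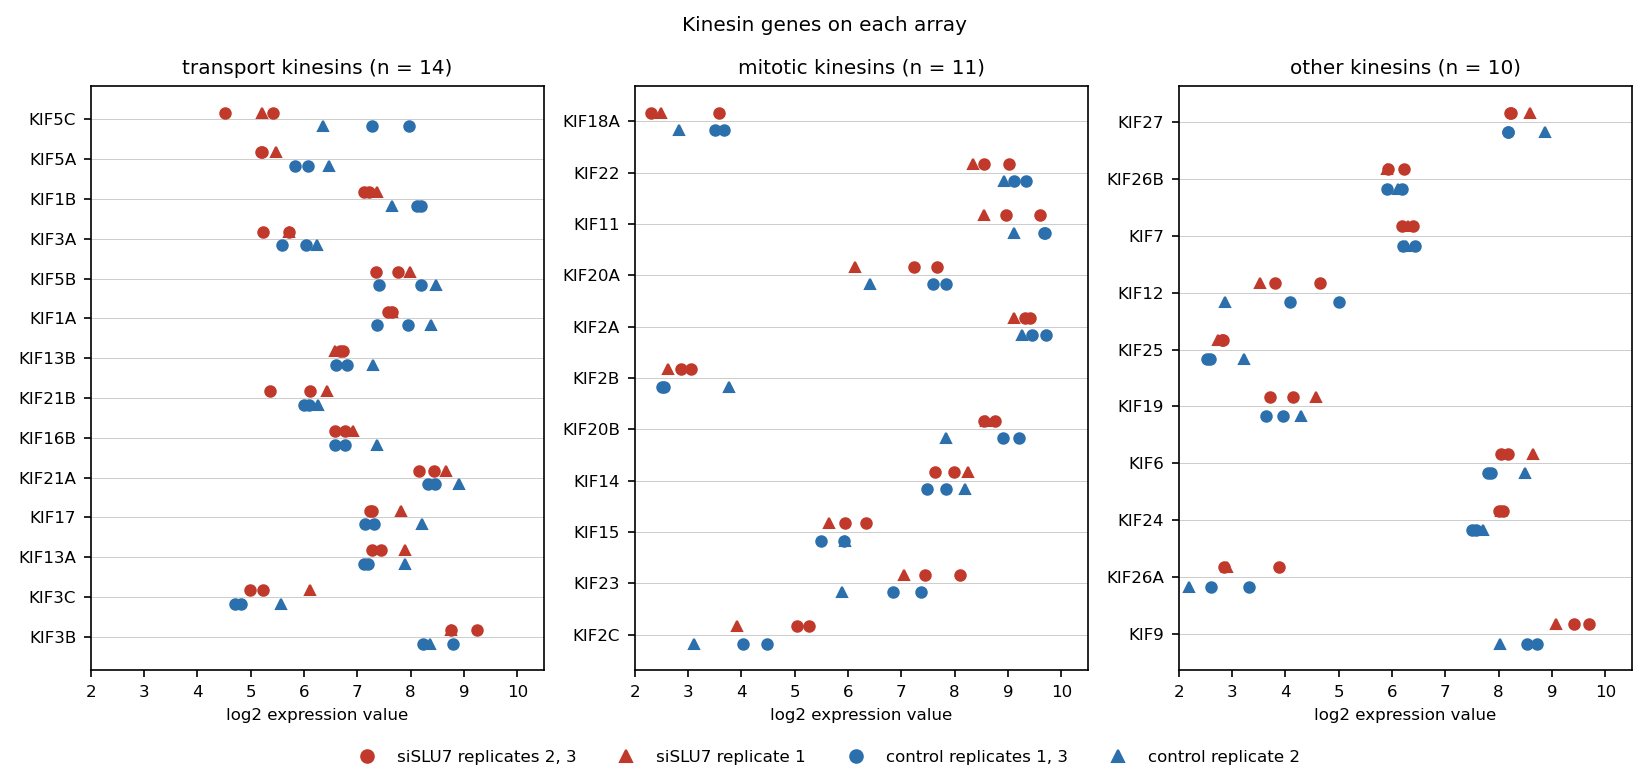
Log2 expression values of the 35 kinesin genes on each of 6 arrays, in panels for transport, mitotic and other kinesins, with siSLU7 values (red) above control values (blue) in each row; triangles mark siSLU7 replicate 1 and control replicate 2. KIF5C, KIF5A, KIF1B, KIF24 and KIF9 are the genes whose groups do not overlap, 14.3% of the 35, against 18.9% of all clusters. The triangles sit low within both groups for KIF20A, KIF2C and KIF23.

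Mitotic kinesins showed no shared direction. Their median difference was -0.09 log2 units over 11 genes, with 7 below 0 and 4 above. It was -0.30 without control replicate 2 and 0.01 without siSLU7 replicate 1. None of the 11 had groups apart, which 18.9% of all clusters had. None had an unadjusted limma p under 0.05 either. KIF2C, a microtubule depolymerase at centromeres, had 3.92, 5.05 and 5.28 log2 units with siSLU7 and 4.03, 3.12 and 4.48 with control siRNA. Its difference was 0.87 ± 0.46 (SE), and both group means lay below the lower quartile of cluster values, although siSLU7 replicates 2 and 3 lay above it. Leaving out 1 array moved it between 0.497 (without control replicate 2) and 1.29 (without siSLU7 replicate 1). KIF23, the motor of the centralspindlin complex that organises the midzone for cytokinesis, had 7.05, 8.11 and 7.44 with siSLU7 and 6.85, 5.89 and 7.38 with control siRNA. That is 0.83 ± 0.43 (SE) higher (limma adjusted p = 0.483), with an interval from -0.15 to 1.81. KIF23 was higher both between the 2 arrays standing apart (1.16) and among the other 4 (0.66), but the difference was 0.42 without control replicate 2. RACGAP1, its partner in centralspindlin, differed by -0.39.

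At the other end stood spindle motors with small negative differences. KIF11, the motor that pushes spindle poles apart, had 8.56, 9.60 and 8.96 log2 units with siSLU7 and 9.70, 9.11 and 9.68 with control siRNA, a difference of -0.46 with an interval from -1.22 to 0.30. It was -0.22 without siSLU7 replicate 1 and -0.74 without siSLU7 replicate 2. KIF22, a chromosome-bound kinesin that pushes chromosome arms outward, had 8.35, 8.55 and 9.02 with siSLU7 and 9.33, 8.93 and 9.12 with control siRNA, a difference of -0.49. KIF18A, which damps chromosome movements at metaphase, had 2.48, 3.59 and 2.30 with siSLU7 and 3.67, 2.83 and 3.50 with control siRNA. Both KIF18A groups were dim, and its difference of -0.54 ran from -0.94 to -0.30 when 1 array was left out. KIF15, a helper of KIF11, had 5.64, 5.93 and 6.34 with siSLU7 and 5.93, 5.94 and 5.48 with control siRNA, a difference of 0.19 that was 0.35 without siSLU7 replicate 1 and near 0 without siSLU7 replicate 3 (0.00045). The remaining mitotic members were KIF20A (-0.27), KIF2A (-0.19), KIF2B (-0.09), KIF20B (-0.01) and KIF14 (0.12), of which KIF2B was dim. For 5 of the 11 the interval lay within 2-fold either way, and it did for 7 of the 14 transport kinesins.

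Set side by side, the median difference of mitotic kinesins was 0.11 log2 units above that of transport kinesins. Measured on each array as the class median of deviations from each gene's mean, mitotic minus transport came to -0.35, 0.33 and 0.31 on siSLU7 arrays and 0.11, -0.61 and 0.42 on control arrays. The means were 0.10 ± 0.39 with siSLU7 and -0.02 ± 0.53 with control siRNA (SD, n = 3 each), so the difference between groups was smaller than the spread within them. The difference of class medians, 0.11 over all arrays, turned sign without control replicate 2 (-0.26) and within the 4 arrays alone (-0.15). It was 0.31 without siSLU7 replicate 1.

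**Figure D4:**
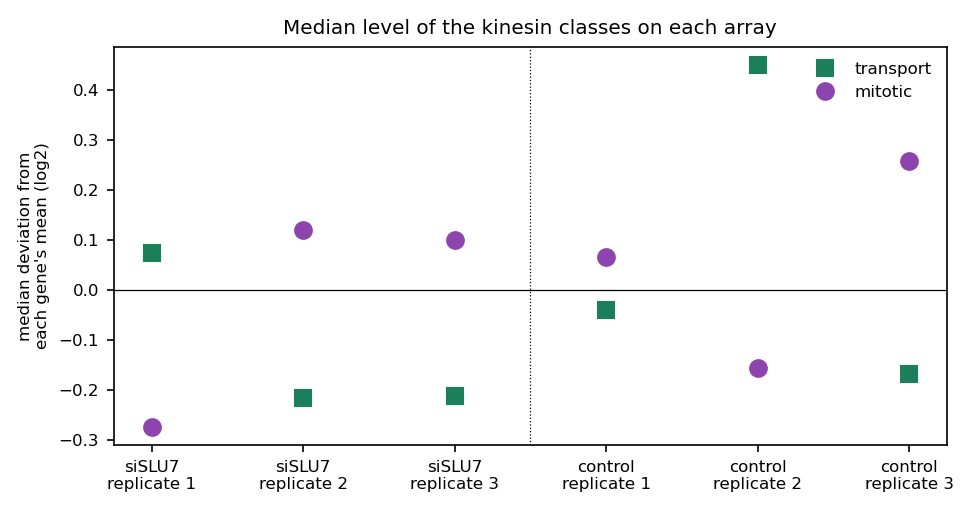
Median deviation from each gene's mean over 6 arrays (log2 units) for 14 transport (squares) and 11 mitotic kinesins (circles), on 3 siSLU7 arrays left of the dotted line and 3 control arrays right of it. The mitotic class lies below the transport class on siSLU7 replicate 1 and control replicate 2 and above it on the other 4 arrays.

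The classes separated between arrays of the same group more than between the groups. On siSLU7 replicate 1 the mitotic kinesins stood a median of 0.46 log2 units below the mean of siSLU7 replicates 2 and 3, and on control replicate 2 they stood 0.58 below the mean of control replicates 1 and 3. Transport kinesins stood 0.26 above on siSLU7 replicate 1 and 0.57 above on control replicate 2. Of 11 mitotic genes, 8 were lower on the apart-standing array in both groups and 1, KIF14, was higher in both. Of 14 transport genes, 10 were higher in both groups and 1, KIF3B, was lower in both. Among all clusters 31.2% were lower in both and 41.1% higher in both. These arrays were recognised from a component of the same data, so gene differences shared by both groups were bound to occur, and no test is given.

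KIF20A, which brings the chromosomal passenger complex to the midzone, had 6.12 log2 units on siSLU7 replicate 1 against 7.24 and 7.66 on its fellow arrays, and 6.41 on control replicate 2 against 7.84 and 7.59. Its gaps of -1.33 and -1.30 exceeded its group difference of -0.27. KIF2C had gaps of -1.24 in the siSLU7 group and -1.13 in the control group, KIF23 of -0.73 and -1.22, and KIF11 of -0.72 and -0.58. On the side of transport kinesins, KIF3C had gaps of 0.99 and 0.81 and KIF17 of 0.55 and 0.98. Across the 35 genes the gaps in the siSLU7 group and in the control group had a Pearson correlation of 0.69, and across all 18708 clusters one of 0.52, given as descriptions since the arrays were picked for standing apart. Partners and cell cycle genes had gaps in both directions. TPX2, which binds KIF11 and KIF15, stood at -0.67 in the siSLU7 group and -0.96 in the control group, and CCNB2, a mitotic cyclin, at -0.95 and -1.45. AURKB, the kinase of the passenger complex, stood higher at 1.02 and 1.53, the kinetochore kinesin CENPE at 0.60 and 0.98, and FOXM1, a transcription factor of late cell cycle genes, at 0.52 and 0.74. By the mean gap of both groups, 14 of 18 partners were lower, and cell cycle regulators split into 6 lower and 6 higher. Among all 18708 clusters, 8158 were lower and 10550 higher by that measure. What set these 2 arrays apart was not tested.

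The promoters of mitotic kinesins were set beside these values, since a CHR element and CCAAT boxes near the start site are known from genes of late cell cycle phases. RefSeq windows of build GRCh38.p14, 250 bases before to 50 after a start site, matched 29 of the 35 genes with 38 windows. KIF13B, KIF19, KIF21B, KIF26B, KIF27 and KIF5A had no entry. The CHR motif TTTGAA, on either strand, was in 6 of 12 windows of mitotic kinesins (KIF11, KIF14, KIF15, KIF18A, KIF20B and KIF23), in 1 of 16 windows of transport kinesins (KIF5B), and in 0 of 10 windows of the others. It was in 15.2% of all 35116 windows of the same length. CCAAT, on either strand, was in 7 of 12 mitotic and 5 of 16 transport windows, against 34.6% of all windows. Both motifs stood together in 5 of 12 mitotic windows, against 5.90% of all windows. A match is a run of letters and not a shown binding site. KIF20A and KIF2C, whose gaps between arrays are given above, had no TTTGAA in their windows. Only those exact letters were searched, so variants of the element and other start sites were not covered. Shown here 5′ to 3′ along the gene, with both motifs in capitals on whichever strand they lie, are the 3 mitotic kinesins of that group with the largest differences, then KIF5B as the transport motor with the motif, and KIF5C, the gene with the largest difference in the family (its more upstream window of 2).
KIF23 (chr15:69414099-69414398, plus strand): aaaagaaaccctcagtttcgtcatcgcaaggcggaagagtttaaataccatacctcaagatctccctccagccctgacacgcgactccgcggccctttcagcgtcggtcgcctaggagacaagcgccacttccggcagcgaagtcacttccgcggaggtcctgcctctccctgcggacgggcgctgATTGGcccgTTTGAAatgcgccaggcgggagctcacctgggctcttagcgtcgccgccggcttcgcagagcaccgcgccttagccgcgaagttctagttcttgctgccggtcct
KIF18A (chr11:28108107-28108406, minus strand): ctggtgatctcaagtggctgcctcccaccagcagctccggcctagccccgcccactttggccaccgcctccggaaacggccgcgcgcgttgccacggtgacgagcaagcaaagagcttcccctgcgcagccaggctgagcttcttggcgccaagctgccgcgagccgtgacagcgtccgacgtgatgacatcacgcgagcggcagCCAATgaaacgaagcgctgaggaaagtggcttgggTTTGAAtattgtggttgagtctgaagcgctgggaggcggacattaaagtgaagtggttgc
KIF11 (chr10:92592880-92593179, plus strand): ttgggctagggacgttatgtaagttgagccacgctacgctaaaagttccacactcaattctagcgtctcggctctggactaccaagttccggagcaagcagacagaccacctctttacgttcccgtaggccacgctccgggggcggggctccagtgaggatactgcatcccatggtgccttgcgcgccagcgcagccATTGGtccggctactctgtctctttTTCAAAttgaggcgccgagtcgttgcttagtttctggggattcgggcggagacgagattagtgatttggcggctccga
KIF5B (chr10:32056376-32056675, minus strand): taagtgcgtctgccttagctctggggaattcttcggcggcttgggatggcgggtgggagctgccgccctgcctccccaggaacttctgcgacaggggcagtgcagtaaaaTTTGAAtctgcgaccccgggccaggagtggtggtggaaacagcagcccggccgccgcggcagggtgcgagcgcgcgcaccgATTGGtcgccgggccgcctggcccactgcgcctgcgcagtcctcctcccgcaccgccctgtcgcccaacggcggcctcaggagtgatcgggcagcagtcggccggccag
KIF5C (chr2:148874977-148875276, plus strand): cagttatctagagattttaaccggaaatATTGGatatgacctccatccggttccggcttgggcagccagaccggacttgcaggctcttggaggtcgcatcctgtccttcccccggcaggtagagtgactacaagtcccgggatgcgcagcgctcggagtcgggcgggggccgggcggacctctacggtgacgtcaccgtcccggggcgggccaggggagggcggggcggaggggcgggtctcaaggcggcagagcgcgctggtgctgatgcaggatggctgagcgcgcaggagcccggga

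In KIF23 the CHR motif began 55 bases before the start site, with a CCAAT box on the opposite strand 64 bases before it. KIF18A carried CCAAT at 45 and the CHR motif at 10 bases before the start, and KIF11 had both on the opposite strand, at 53 and 28 bases. KIF5B held its TTTGAA farther off, 140 bases before the start. In KIF5C there was a CCAAT on the opposite strand 222 bases before the start and no TTTGAA. These 3 mitotic genes shared both motifs. Their siSLU7 minus control differences ran from -0.54 to 0.83 log2 units, a range that reflects their choice by largest difference. The limma interval of each included both signs: -1.45 to 0.36 for KIF18A, -1.22 to 0.30 for KIF11 and -0.15 to 1.81 for KIF23. Whether the motifs go with the siSLU7 minus control difference was therefore not tested. On the apart-standing arrays, 4 of the 6 mitotic kinesins with TTTGAA were lower in both groups, KIF14 was higher in both and KIF15 went opposite ways. Of the 5 mitotic kinesins without it, 4 were lower in both.

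Among the 10 other kinesins, KIF9 had the largest difference. KIF9 (cluster 2672670), a kinesin-9 of motile cilia and flagella, had 9.08, 9.41 and 9.70 log2 units on siSLU7 arrays and 8.54, 8.02 and 8.72 on control arrays. Every siSLU7 value lay above every control value, as in 9.64% of all clusters. The means were 9.40 ± 0.31 with siSLU7 and 8.42 ± 0.36 with control siRNA (SD, n = 3 each), a difference of 0.97 ± 0.29 (SE) or 1.96-fold higher (95% interval 1.23 to 3.12), with a limma adjusted p of 0.194. At an unadjusted p under 0.05, 6.55% of all clusters were higher. KIF9 differed by 1.06 between the 2 arrays standing apart and by 0.93 among the other 4. KIF6, the other kinesin-9, differed by 0.24.

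KIF24, a centriole protein that restrains the growth of primary cilia, had 8.05, 8.01 and 8.08 log2 units with siSLU7 and 7.50, 7.70 and 7.57 with control siRNA. Its groups lay apart, with a difference of 0.45 ± 0.23 (SE) and a limma adjusted p of 0.468, and its dimmer cluster (3203949) differed by 0.45 as well. KIF27, a relative of the Hedgehog regulator KIF7, was the lowest of these genes at -0.06, with 8.59, 8.21 and 8.24 with siSLU7 and 8.17, 8.87 and 8.18 with control siRNA. KIF7 differed by -0.01 and KIF26B, an atypical kinesin, by -0.05. KIF26A (0.50), KIF19 (0.18), KIF25 (0.01) and KIF12 (0.00) were dim in both groups by their means, although KIF12 on control replicate 3 (5.01) lay above that array's lower quartile. The median of the 10 genes was 0.10 log2 units, with 7 above 0. KIF9 and KIF24 were the 2 with groups apart, 20% of the 10, against 18.9% of all clusters.

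With the 2 arrays standing apart entered as a block, KIF5C (adjusted p = 0.0474) and KIF9 (adjusted p = 0.0451) passed the limma threshold, as did 4.19% of all clusters. So did KLC4 (adjusted p = 0.0254), CDCA8 of the passenger complex (0.0286), SNAP25 (0.0250), DYNC1H1 (0.0302) and DYNLL2 (0.0464), the last 2 being dynein subunits. That block was read from the first component of the same values, and its choice is not counted in these p-values. KIF5C also passed without the clusters in the lowest quartile of brightness, where 324 of 14031 clusters were called. It passed too with an intensity trend and robust shrinkage (441 of 18708 called) and with array weights (575 of 18708). The fit as reported called 81 of 18708. KIF5C missed the threshold under the replicate block, quantile normalization and median centring, in the 4 arrays alone, and without any 1 array.

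Kinesins that the naming rule leaves out were measured too. KIFC2, a minus-end-directed kinesin, had 5.02, 5.50 and 4.94 log2 units with siSLU7 and 6.35, 7.02 and 6.19 with control siRNA, a difference of -1.37 ± 0.31 (SE) or 2.58-fold lower (limma adjusted p = 0.0967). CENPE, the kinetochore kinesin, differed by 0.01 and KIFC3 by 0.05, so of 3 measured (5 listed) none passed in either direction and 1 was lower at an unadjusted p under 0.05 (6.54% of all clusters were). Among 18 partners of mitotic kinesins, none passed, and the median difference was 0.17, with 12 above 0. The highest was CDCA8 (borealin, of the passenger complex that KIF20A carries), with 8.37, 8.59 and 8.74 with siSLU7 and 7.28, 7.19 and 7.55 with control siRNA, a difference of 1.23 ± 0.25 (SE; limma adjusted p = 0.0747). The lowest was CIT, the citron kinase that binds KIF14, with 8.10, 8.56 and 8.27 with siSLU7 and 8.91, 9.08 and 8.85 with control siRNA, a difference of -0.64. Of 12 measured cell cycle regulators (14 listed) none passed, with a median of -0.02, from MYBL2 at -0.56 to CCNB2 at 0.80.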

How the data were processed

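Total RNA from 3 siSLU7 and 3 control samples of PLC/PRF/5 was measured on 1 array each. The core probe definition of aroma.affymetrix was used, per the labels, and the submitters' processing notes name RMA. The deposited values were taken as log2 expression from their range (0.958 to 14.5). The genome build is not given in the sources used here. Since each value summarises the exons of a gene, altered exon use can appear as altered level.

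Gene symbols came from GEO's platform table (16287 of 18708 clusters with 1 symbol, 674 with several and 1747 with none). Each gene was its brightest cluster. Groups were compared with limma 3.58.1 (R 4.3.3; lmFit and eBayes, group as the only term, no filter) across all clusters, with Benjamini-Hochberg adjustment at 0.05, and the test was tested on simulated data. The simulation was run in 3 versions: a limit on the share of 2-log2 changes recovered was not met in the first 2, and it was then replaced by checks of bias, interval coverage, false calls and recovery of larger changes, because many changes of 2 log2 units, about the size of the KIF5C difference, were missed in that test. A gene that misses the threshold is therefore read by its interval. The simulated noise was independent between arrays, so the checks of interval coverage and false calls do not cover the 2 arrays standing apart. Intervals are 95%. Arrays correlated at 0.926 to 0.974, and no pair shared more than 9 values.

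The members, classes, lists and tests were chosen with earlier results of these data known. Kinesins described with their values on every array were those at an unadjusted p under 0.05, the 3 highest and 3 lowest of the transport and mitotic classes, and the highest and lowest of the others. From each list, the highest and lowest members were named. KIF20A, KIF24, KIF3A, KIF5B, KLC2, KLC3, TRAK1, KTN1, TPX2, RACGAP1, SNAP25 and TUBB3 were added after their values were seen. AURKB, FOXM1, KIFAP3, CENPE, TRAK2 and MAPK8IP3 were likewise named outside the rule of highest and lowest. Lists are described by counts and medians, with no set test. Protein sequences were not used here.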

Additional observations from a re-analysis of the deposited data

How the results depend on the processing

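No kinesin was called by limma under the replicate block, quantile normalization, median centring, the mean over a gene's clusters, the threshold of 0.01, the 4 arrays alone, or without any 1 array. In each of these settings 3 to 6 kinesins had an unadjusted limma p under 0.05. That is 8.57% to 17.1% of the family, against 9.80% to 15.6% of all clusters. The count of called kinesins was 2 with the array split as a block (KIF5C and KIF9, 7 or 20% at an unadjusted p under 0.05, against 20.6% of all clusters), and 1, KIF5C, without the lowest quartile of clusters, with an intensity trend and robust shrinkage, and with array weights (adjusted p from 0.0175 to 0.0379). The number of clusters called, 81 as reported, was 783 with the array split as a block, 575 with array weights, 441 with the trend, 324 without the lowest quartile of clusters, and 0 at a threshold of 0.01, with the replicate block (1845 at an unadjusted p under 0.05), in the 4 arrays alone (2922) and without any 1 array (1833 to 2573). Same-numbered arrays deviated from their group means with correlations of -0.38, -0.31 and 0.14, and 0 of 6 arrays correlated best with its own number. The arrays standing apart, siSLU7 replicate 1 and control replicate 2, correlated at 0.52 and carry different numbers. These correlations therefore cannot tell whether same-numbered arrays were handled together. The SLU7 difference of -1.51 was past the threshold with the array split as a block (-1.51, adjusted p = 0.043), with the trend (-1.51, 0.033), without the lowest quartile of clusters (-1.51, 0.0411) and with array weights (-1.61, 0.0269). The median of the other kinesins, 0.10 as reported, was 0.20 with array weights and 0.20 in the 4 arrays alone, and 0.048 to 0.23 when 1 array was left out (0.23 without control replicate 2). Leaving out 1 array moved the mitotic median between -0.30 and 0.01 and the transport median between -0.29 and -0.04, and mitotic minus transport was -0.12 with array weights. With KIF2A and KIF2B outside the mitotic class that difference of medians was 0.19, and with KIF21A and KIF21B outside the transport class 0.17. KIF27 turned to 0.049 in the 4 arrays alone and ran from -0.18 to 0.17 without 1 array, and KIF13A ran from -0.048 (without siSLU7 replicate 1) to 0.38. Averaging its 2 clusters put KIF5A at -0.46. The cause of these shifts was not tested. Of 7 kinesins with a mean below the lower quartile, none allows a firm size.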

Other observations

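Cytoplasmic dynein, the motor that walks toward the opposite microtubule end, was measured beside the kinesins. Its heavy chain DYNC1H1 had 8.02, 8.16 and 7.95 log2 units with siSLU7 and 10.53, 9.22 and 9.95 with control siRNA. The groups did not overlap, and the difference was -1.86 ± 0.35 (SE) or 3.63-fold lower, with a limma adjusted p of 0.0622. Between siSLU7 replicate 1 and control replicate 2, which stand apart from the rest, it was -1.20, and among the other 4 arrays -2.19. The dynein light chain DYNLL2 had 9.90, 9.92 and 9.72 log2 units with siSLU7 and 8.997, 8.80 and 8.98 with control siRNA, a difference of 0.92 ± 0.23 (SE) with a limma adjusted p of 0.13. Over 19 measured dynein and dynactin genes (24 listed), none passed the test in either direction, 1 was higher and 1 lower at an unadjusted p under 0.05 (6.55% of all clusters were higher and 6.54% lower), and the median difference was -0.07 log2 units.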
